A study of Mus musculus with 18 samples.

Results

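The mitotic cell cycle genes are 38 genes of G2 and M phase, listed by name for their known roles. Of these, 37 were measured, among 19505 genes in all, and Ccnb1 was not analysed here. RNA came from bone marrow preparations labelled as mesenchymal stromal cells, with 1 array per mouse and 18 mice. The labels of NeuT 12-week replicate 4 carry 2 different mouse identifiers, and it was kept in its labelled group. The control groups were 5 BALB/c mice of 12 weeks and 4 of 24 weeks. The tumour-bearing groups were 5 NeuT mice of 12 weeks, labelled as an early stage of breast tumour development, and 4 of 24 weeks, labelled as a late stage. NeuT mice carry an activated rat Erbb2 transgene whose viral promoter is mainly active in mammary epithelium, and transgene effects cannot be told apart from tumour effects. Femurs and tibias of all mice were depleted with beads of cells bearing CD45, Ter119, CD11b, CD11c, CD3, Gr1 or B220, and the cells left were checked by flow cytometry for CD29 and CD44 and for absence of CD45.

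Cells that enter mitosis switch on a shared set of genes in G2: cyclins A and B activate the kinase Cdk1, kinesins and microtubule proteins build the spindle, and kinetochore proteins attach chromosomes to it. The spindle checkpoint holds back the anaphase-promoting complex until every chromosome is attached, after which cyclins are destroyed and the cell divides. In bone marrow, dividing cells are mainly blood cell precursors (erythroid, granulocyte and B-cell precursors), whereas mesenchymal stromal cells divide rarely. Signals of the mitotic genes in a mixed preparation therefore follow both how many cells divide and how much of this RNA each holds, and in bulk samples fewer cells of a type and less RNA per cell cannot be told apart.

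The G2 and M phase genes are known to share promoter elements: the cell cycle homology region TTTGAA, bound by the MuvB complexes, and CCAAT, bound by NF-Y. RefSeq promoter windows (GRCm38.p6, from 250 bases before to 50 after the start) were matched for 33 of the 37 genes, in 34 windows. TTTGAA, searched on both strands, was found in 25 of these 33 genes and in 76.5% of their windows, against 17.9% of all 32851 windows in the table and 15.3% of the windows of genes on the array. CCAAT, on both strands, was found in 25 of the 33 genes and also in 76.5% of their windows, against 37.4% of all windows. Both elements together were in 67.6% of the windows, against 6.95% of all windows. TTTGAA lay within 50 bases of the start in 24 of the 34 windows, or 70.6%, against 4.94% of all windows. The related form TTCGAA was in 3 of the 34 windows, or 8.82%, against 1.56% of all. The letters describe these windows only, since the arrays do not measure binding. The 2 elements can share at most 1 letter. Neither was found in the windows of Birc5, Mad2l1, Melk, Nuf2 and Nusap1.

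The 200 bases around the start (170 before, 30 after) are printed for 7 of the genes described below. They include one without either element, Nusap1. Each is written 5′ to 3′ along the gene, with both elements on either strand in capitals, so that ATTGG is CCAAT and TTCAAA is TTTGAA on the opposite strand. The windows are Cdk1 at chr10:69352883-69353082 (minus strand), Ccnb2 at chr9:70421525-70421724 (minus), Mki67 at chr7:135716350-135716549 (minus), Cdc20 at chr4:118437314-118437513 (minus), Kif11 at chr19:37376212-37376411 (plus), Aspm at chr1:139454603-139454802 (plus) and Nusap1 at chr2:119618128-119618327 (plus).
Cdk1: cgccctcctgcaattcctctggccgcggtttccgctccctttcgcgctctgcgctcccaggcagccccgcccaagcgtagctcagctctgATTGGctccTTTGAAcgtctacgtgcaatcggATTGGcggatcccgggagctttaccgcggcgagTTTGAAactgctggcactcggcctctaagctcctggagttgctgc
Ccnb2: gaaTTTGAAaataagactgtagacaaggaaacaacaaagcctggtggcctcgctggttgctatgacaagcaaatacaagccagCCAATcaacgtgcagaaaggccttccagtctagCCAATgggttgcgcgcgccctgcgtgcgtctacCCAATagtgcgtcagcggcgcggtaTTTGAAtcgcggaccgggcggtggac
Mki67: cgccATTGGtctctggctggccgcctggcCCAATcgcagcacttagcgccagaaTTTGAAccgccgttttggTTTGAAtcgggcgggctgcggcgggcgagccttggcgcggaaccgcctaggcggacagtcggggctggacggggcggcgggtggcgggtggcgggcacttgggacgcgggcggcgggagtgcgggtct
Cdc20: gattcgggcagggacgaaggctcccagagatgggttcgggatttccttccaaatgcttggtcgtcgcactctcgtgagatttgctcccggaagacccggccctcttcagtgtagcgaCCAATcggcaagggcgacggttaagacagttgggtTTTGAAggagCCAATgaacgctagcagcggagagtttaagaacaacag
Kif11: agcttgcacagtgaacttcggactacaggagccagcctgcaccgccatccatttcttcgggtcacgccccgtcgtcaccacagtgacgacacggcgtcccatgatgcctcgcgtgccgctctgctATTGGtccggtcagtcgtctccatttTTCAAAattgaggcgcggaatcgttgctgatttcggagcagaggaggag
Aspm: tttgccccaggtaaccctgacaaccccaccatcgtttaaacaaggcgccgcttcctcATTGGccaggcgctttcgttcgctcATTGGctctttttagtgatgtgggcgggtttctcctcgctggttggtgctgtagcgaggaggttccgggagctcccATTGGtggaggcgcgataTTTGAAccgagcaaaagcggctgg
Nusap1: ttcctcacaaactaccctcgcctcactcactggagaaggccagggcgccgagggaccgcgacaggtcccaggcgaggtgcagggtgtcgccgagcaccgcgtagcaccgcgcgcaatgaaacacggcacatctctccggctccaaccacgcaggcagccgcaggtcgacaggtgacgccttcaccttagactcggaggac

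Cdk1 and Mki67 each held TTTGAA at 2 places. In Cdk1 these began 71 and 15 bases before the start, and in Mki67 116 and 98 bases before it. In Ccnb2 one copy began 4 bases after the start and another 167 bases before it, with CCAAT 87, 54 and 21 bases before it. In Cdc20 TTTGAA began 18 bases before the start, in Kif11 19 bases before it, and in Aspm 6 bases after it. Of the other mitosis genes described below, 52.5% of windows held TTTGAA, and of the genes of G1/S and DNA synthesis 17.5%, close to the share over all windows.

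The deposited values are log2 signals after robust multi-array averaging, and a signal is compared only with that of the same gene on other arrays, while levels of control probe sets are given for orientation. The median signal over genes was 8.43 to 8.56 per array. Median correlation with the other arrays was lowest at 0.987 in replicate 4 of the younger NeuT mice, 0.988 in replicate 3 of the older BALB/c mice and 0.991 in replicate 1 of the older NeuT mice. Negative control probe sets had a median of 7.35 and a 95th percentile of 10.46. Of the cell types that the beads target, the mean over arrays ran from 12.06 to 12.68 for 10 granulocyte precursor markers, from 10.71 to 11.79 for 12 erythroid markers, from 8.82 to 9.68 for 13 monocyte and macrophage markers and from 8.50 to 9.19 for 12 T and NK cell markers. For 12 B-cell markers it ran from 9.34 to 10.97 and for 15 late neutrophil markers from 9.76 to 11.28. For 18 stromal markers it ran from 8.41 to 8.73. These levels were not compared between lists and give no shares of cells.

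All 37 mitotic genes gave a signal above the median of the negative controls, 7.35, on every array. For 22 of them, or 59.5%, the signal exceeded that 95th percentile on every array, against 13.3% of all genes. Another 12 were under it on every array: Aurka, Bub1, Bub1b, Cenpf, Kif11, Kif20a, Kif4, Kif2c, Ttk, Anln, Espl1 and Melk. Within groups the standard deviation of a gene, pooled over the 4 groups, ran from 0.068 (Cdca8) to 0.32 (Kif4) log2 units with a median of 0.13, against 0.14 over all genes.

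The mean log2 signal over the 37 genes was 10.92, 10.85, 10.97, 11.04 and 10.91 in the 5 BALB/c mice of 12 weeks. In the 5 NeuT mice of 12 weeks it was 10.91, 10.91, 10.93, 10.89 and 11.01. At 24 weeks it was 10.75, 10.88, 10.70 and 10.92 in BALB/c and 10.76, 10.92, 10.88 and 10.78 in NeuT. The NeuT mice of 12 weeks lay within the range of the controls, and in each 24-week group a pair of mice lay below every 12-week mouse while the other pair did not. BALB/c 24-week replicate 3 held the lowest value of the whole series for 12 of the 37 genes, and replicate 1 of that group for 9. The highest value was in NeuT 12-week replicate 5 for 12 genes, in replicate 4 of the same group for 7 and in BALB/c 12-week replicate 4 for 9.

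**Figure D1:**
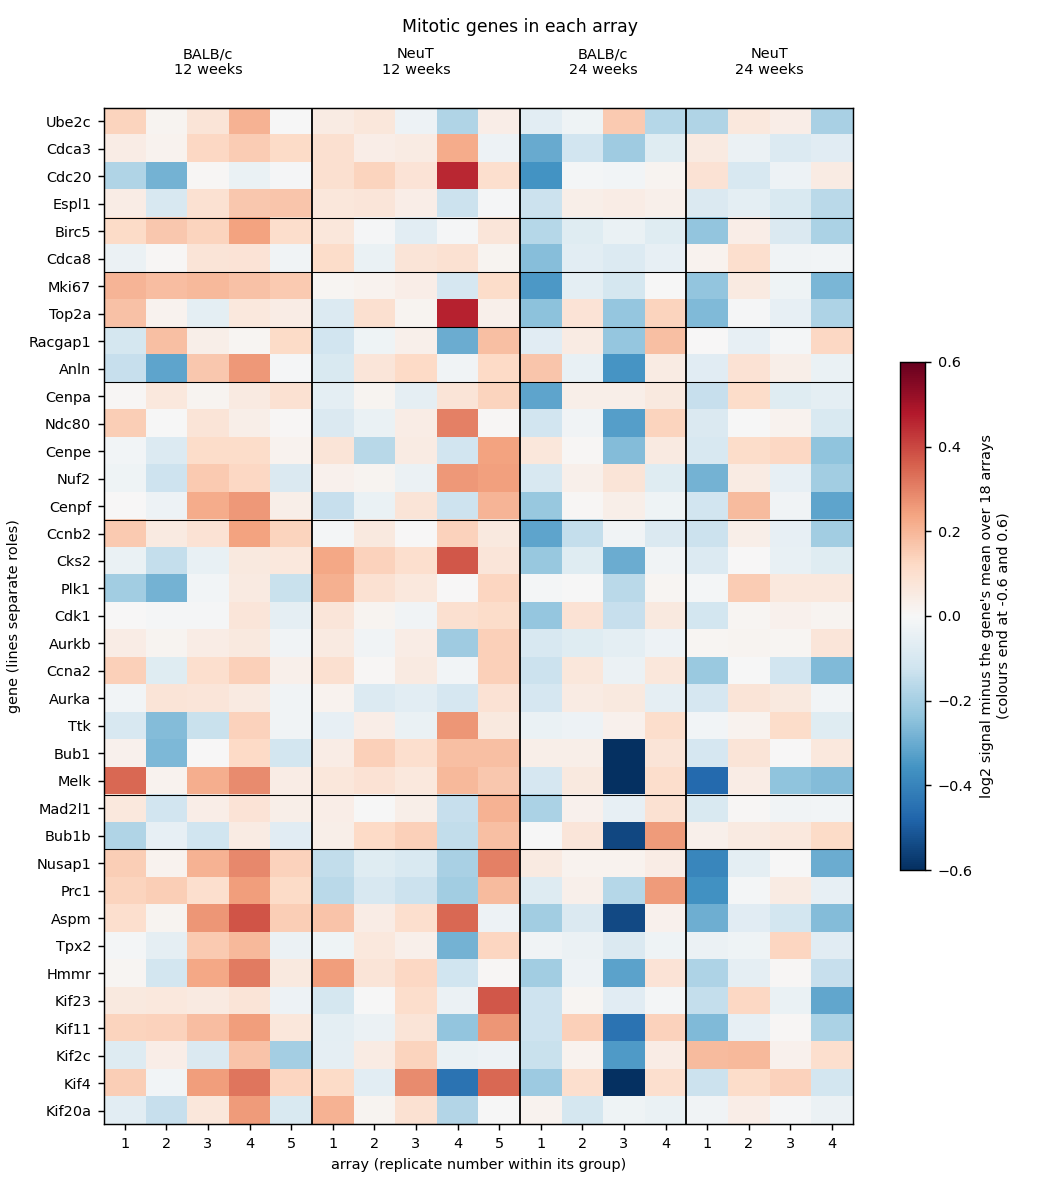
Log2 signal of each of the 37 mitotic genes (rows, ordered by role) on each of the 18 arrays (columns, by group and replicate), as the difference from that gene's mean over all arrays. The colour scale is in log2 units and ends at -0.6 and 0.6, and BALB/c 24-week replicates 1 and 3 show low values in many rows.

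The first comparison asked how the preparations of tumour-bearing mice differed from controls at 12 weeks. No mitotic gene passed the threshold of limma's moderated test (adjusted p under 0.05, Benjamini-Hochberg over all genes), whereas 3.84% of all genes did. At an unadjusted p under 0.05 there were 7 of the 37, or 18.9%, against 21.0% of all genes. Of the 37 differences, NeuT minus BALB/c, 22 were below 0, the median was -0.017 on the log2 scale against -0.025 over all genes, and the range was -0.23 to 0.27. Without NeuT replicate 4 the count below 0 was 18 and the median 0.0031. Every 95% confidence interval lay within 0.5 log2 units of 0, or 1.41-fold. In the same comparison 8 of 15 late neutrophil markers rose (median 0.63), and 11 of 12 erythroid markers were below 0 (median -0.18) with none past the threshold. B-cell markers were also below 0 for 11 of 12 (median -0.55), with none past the threshold. Granulocyte precursor markers rose for 2 of 10, and 2 of the 10 were below 0 (median 0.24). Over all genes 57.4% were below 0. Their part in the mitotic values was not tested.

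Among kinases and their partners, Plk1, a kinase of centrosome maturation and mitotic exit, measured 11.73, 11.66, 11.92, 11.99 and 11.81 in BALB/c and 12.16, 12.03, 12.00, 11.94 and 12.07 in NeuT. The highest BALB/c value lay among the NeuT values. The difference was 0.22 ± 0.07 (SE) with an adjusted p of 0.0830 in limma's test. Cks2, a small subunit that binds cyclin-dependent kinases, measured 12.05, 11.95, 12.05, 12.15 and 12.16 in BALB/c and 12.32, 12.23, 12.19, 12.47 and 12.16 in NeuT. Its groups did not overlap, although they met at 12.16 as rounded, and the difference was 0.20 ± 0.07 with limma's adjusted p of 0.113. Cdk1, the kinase that drives entry into mitosis, differed by 0.05 (95% interval -0.09 to 0.19), and Aurkb, the kinase of the chromosomal passenger complex, by -0.03 (-0.16 to 0.11).

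Cdc20, the activator of the anaphase-promoting complex, had the largest positive difference of the 37. It measured 11.16, 11.06, 11.35, 11.30 and 11.34 in BALB/c and 11.44, 11.48, 11.42, 11.80 and 11.44 in NeuT, and every NeuT mouse was above every BALB/c mouse. The difference was 0.27 ± 0.09, or 1.21-fold, with an adjusted p of 0.0788 in limma's test. The other 3 genes listed with it, under the anaphase-promoting complex and mitotic exit, were Ube2c (the E2 enzyme of the complex), Espl1 (separase) and Cdca3 (a factor of mitotic entry). All 3 had differences below 0, down to -0.10 for Ube2c.

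Of 10 spindle motors and microtubule proteins, 7 had differences below 0. Prc1, which bundles the microtubules of the central spindle, measured 11.29, 11.30, 11.26, 11.41 and 11.28 in BALB/c and 11.00, 11.06, 11.03, 10.95 and 11.35 in NeuT. Nusap1, which bundles spindle microtubules near chromosomes, measured 11.69, 11.56, 11.75, 11.83 and 11.68 in BALB/c and 11.39, 11.47, 11.45, 11.35 and 11.84 in NeuT. For both, 4 of the 5 NeuT mice lay below every control and replicate 5 lay within or above the controls. The difference was -0.23 ± 0.09 for Prc1 (adjusted p 0.149, limma) and -0.20 ± 0.09 for Nusap1 (adjusted p 0.201, limma). Without NeuT replicate 5 both passed the threshold, Nusap1 at -0.29 (adjusted p 0.0348) and Prc1 at -0.30 (adjusted p 0.0457). The late neutrophil markers of that array averaged 9.94, in the range of the controls (9.79 to 10.37) and below the other NeuT 12-week mice (10.63 to 11.28). It was also the lowest of its group for monocyte and macrophage (9.21), granulocyte precursor (12.21) and T and NK cell markers (8.63). For erythroid (11.61) and B-cell markers (10.75) it was the highest. The part of these differences in the result was not tested.

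Mki67, which coats mitotic chromosomes and marks dividing cells, measured 13.52, 13.50, 13.50, 13.49 and 13.47 in BALB/c and 13.32, 13.33, 13.35, 13.21 and 13.42 in NeuT, with no overlap. The difference was -0.17 ± 0.08 with an adjusted p of 0.212 in limma's test. Birc5 (survivin, a chromosomal passenger) also did not overlap, at 12.64, 12.69, 12.66, 12.77 and 12.63 against 12.59, 12.52, 12.46, 12.52 and 12.60, and differed by -0.14 (adjusted p 0.216, limma). In all, 4 of the 37 genes did not overlap between the groups, or 10.8% against 7.46% of all genes, with Cdc20 and Cks2 higher and Mki67 and Birc5 lower in NeuT. The 4 thus divided equally by direction.

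**Figure D2:**
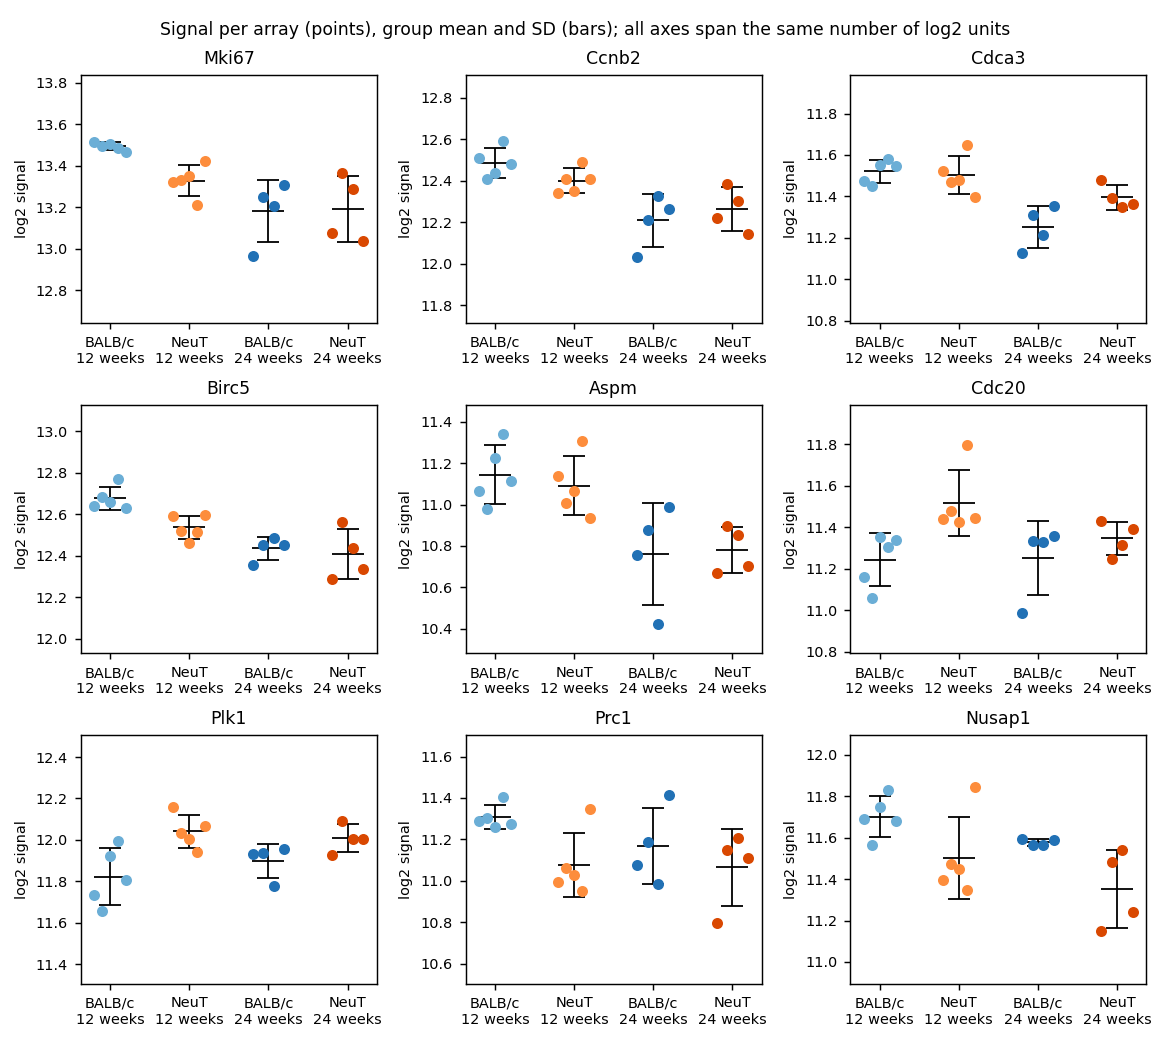
Log2 signal of selected mitotic genes in single mice of the 4 groups, with points for mice and a bar for the group mean with its standard deviation. In NeuT 12-week mice Cdc20 lay above and Mki67 below all controls of the same age, while 1 NeuT mouse stood apart for Nusap1 and Prc1.

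At 24 weeks the same contrast compared mice of late tumour stage with controls. No mitotic gene passed limma's threshold, against 1.4% of all genes, and 2 of the 37 (5.41%, against 13.2% of all genes) had an unadjusted p under 0.05. Of the 37 differences 14 were below 0, or 37.8% against 50.1% of all genes. The median was 0.018 against -0.00014 over all genes, and the range was -0.22 to 0.27. This balance turned with the processing: 26 were below 0 after further quantile normalisation (median -0.039), 25 after cyclic loess (-0.038), 24 with array weights (-0.036) and 25 without the 3 arrays of low correlation and the array of lowest median signal (-0.047). Medians over all genes in these settings were -0.012, -0.0050, 0.00083 and -0.0014 in the same order. The 95% intervals of 36 genes lay within 0.5 log2 units of 0, the exception being Kif4, a chromosome-bound kinesin, with a difference of 0.27 (-0.12 to 0.66).

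Kif2c, a kinesin that depolymerises microtubules at kinetochores, measured 9.57, 9.73, 9.37 and 9.75 in BALB/c and 9.90, 9.90, 9.73 and 9.81 in NeuT. One NeuT mouse lay within the control range, and the difference was 0.23 ± 0.09 with an adjusted p of 0.263 in limma's test. Nusap1 measured 11.59, 11.56, 11.56 and 11.59 in BALB/c and 11.15, 11.48, 11.54 and 11.24 in NeuT, with no overlap, and differed by -0.22 ± 0.10 (adjusted p 0.329, limma). The controls were close together, with a standard deviation of 0.02, against 0.19 in NeuT.

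Cdca8 (borealin, a chromosomal passenger) measured 10.81, 11.00, 10.98 and 11.02 in BALB/c and 11.09, 11.16, 11.05 and 11.05 in NeuT and differed by 0.13 (adjusted p 0.423, limma). Aurkb measured 11.55, 11.58, 11.59 and 11.62 against 11.66, 11.66, 11.66 and 11.72 and differed by 0.09 (adjusted p 0.620, limma). These genes and Nusap1 were the 3 of 37 whose groups did not overlap, 8.11% against 6.72% of all genes. Ccna2, the cyclin of S phase and G2, differed by -0.14 (adjusted p 0.448) and Cdca3 by 0.14 (adjusted p 0.416), both in limma's test and with overlap. Mki67 differed by 0.01 (-0.17 to 0.18), Cdk1 by 0.04 (-0.12 to 0.20) and Top2a, the topoisomerase that untangles chromosomes, by -0.06 (-0.28 to 0.16). The signs of Mki67 and Cdk1 turned after further quantile normalisation or cyclic loess.

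In the NeuT mice of 24 weeks the mitotic mean was lower in replicates 1 and 4 (10.76 and 10.78) than in replicates 2 and 3 (10.92 and 10.88). The erythroid markers divided the same mice in the same way, at 10.71 and 10.85 against 11.57 and 11.49, and so did the B-cell markers, at 9.60 and 9.70 against 10.73 and 10.41. The granulocyte precursor markers divided them the opposite way, at 12.68 and 12.67 against 12.35 and 12.43. So did the monocyte and macrophage markers, at 9.68 and 9.49 against 9.16 and 9.35. The T and NK cell markers went with the mitotic mean, at 8.50 and 8.52 against 8.77 and 8.65. The stromal markers did too, at 8.57 and 8.54 against 8.73 and 8.67. In the BALB/c mice of 24 weeks the mitotic mean was lower in replicates 1 and 3 (10.75 and 10.70) than in replicates 2 and 4 (10.88 and 10.92). The erythroid markers did not divide these mice in that way, at 11.27 and 11.51 against 11.41 and 11.46. Nor did the B-cell markers, at 10.75 and 10.91 against 10.80 and 10.97. Granulocyte precursor, late neutrophil, and monocyte and macrophage markers did not either. The T and NK cell markers did divide them so, at 8.73 and 8.83 against 9.12 and 9.19. Stromal markers did as well, at 8.41 and 8.49 against 8.56 and 8.57. Markers of stem and progenitor cells also did, at 9.54 and 9.42 against 9.65 and 9.70. Of the 12 erythroid markers 12 were below 0 in NeuT minus BALB/c at 24 weeks, with a median of -0.27 and none past the threshold. Of the 12 B-cell markers 3 were lower past the threshold, with a median of -0.86. Of 15 late neutrophil markers 6 were higher, with a median of 0.82, where the mitotic genes had a median of 0.018. Granulocyte precursor markers were higher past the threshold for 2 of 10, and 0 of the 10 were below 0 (median 0.30). Among 12 T and NK cell markers 3 were lower and 1 higher past the threshold (median -0.32). The higher one, Nkg7, is also on the granulocyte precursor list. Over all genes 1.4% passed the threshold and 50.1% were below 0. The part of these cell types in the mitotic signal was not tested.

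**Figure D3:**
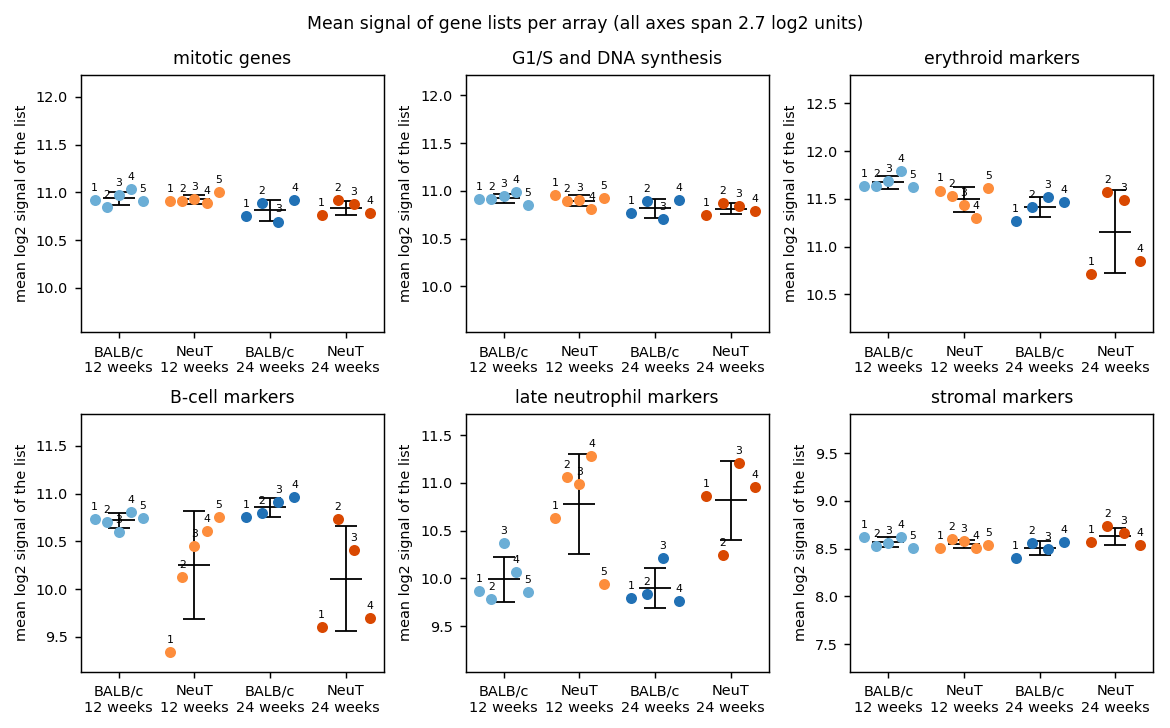
Mean log2 signal per array of the mitotic genes, genes of G1/S and DNA synthesis, and markers of erythroid, B, late neutrophil and stromal cells, with replicate numbers, group means and standard deviations; every axis spans the same number of log2 units. The mitotic means spread less than the B-cell and late neutrophil means, and NeuT 24-week replicates 1 and 4 were low in the mitotic, erythroid and B-cell panels. BALB/c 24-week replicate 3 was low in the mitotic panel and the highest of its group in the erythroid panel.

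Whether the NeuT difference itself changed between 12 and 24 weeks was tested by the difference of the 2 effects. No mitotic gene passed limma's threshold and none had an unadjusted p under 0.05, against 0.0103% and 6.50% of all genes. The values ran from -0.20 (Nuf2, a kinetochore subunit that binds microtubules) to 0.39 (Kif4), with a median of 0.03. Kif4 had the widest interval, -0.13 to 0.91. For this gene BALB/c 24-week replicate 3 measured 8.35 where the other 3 mice measured 9.19, 9.51 and 9.51, and NeuT 12-week replicate 4 measured 8.96 where the others measured 9.34 to 9.75. The NeuT difference of Mki67 was -0.17 at 12 weeks and 0.01 at 24 weeks, a difference of 0.17 (-0.06 to 0.41), with an adjusted p of 0.846 in limma's test. That of Cdc20 was 0.27 and 0.10, a difference of -0.18 (-0.45 to 0.10), so a decrease and no change are both within its interval.

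Mice of 24 weeks were next compared with mice of 12 weeks of the same genotype. Age and any processing batch of the 2 ages cannot be told apart, since the labels give no batch. In BALB/c, 33 of the 37 differences, 24 minus 12 weeks, were below 0, or 89.2% against 55.9% of all genes, with a median of -0.093 against -0.018 over all genes. Without the 3 arrays of low correlation and BALB/c 24-week replicate 1, the array of lowest median signal, 24 were below 0 and the median was -0.031. Over all genes the median was then -0.011. This leaves only replicates 2 and 4 of the BALB/c 24-week group, with mitotic means of 10.88 and 10.92. The mitotic means of replicates 1 and 3, left out, were 10.75 and 10.70. None passed limma's threshold, against 0.579% of all genes, and 9 genes had an unadjusted p under 0.05, or 24.3% against 15.3%, all of them lower at 24 weeks. The adjusted p-values of the lowest 5 were between 0.0690 and 0.0890.

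Mki67 measured 12.96, 13.25, 13.21 and 13.31 in the 24-week BALB/c mice, all below the 5 mice of 12 weeks (13.47 to 13.52), a difference of -0.31 ± 0.08 (adjusted p 0.0690, limma). Ccnb2, a B-type cyclin of Cdk1, measured 12.51, 12.41, 12.44, 12.59 and 12.48 at 12 weeks and 12.03, 12.21, 12.33 and 12.27 at 24 weeks, with no overlap and a difference of -0.28 ± 0.07 (adjusted p 0.0739, limma). Cdca3 measured 11.47, 11.45, 11.55, 11.58 and 11.54 against 11.13, 11.31, 11.21 and 11.36, again with no overlap, and differed by -0.27 ± 0.07 (adjusted p 0.0708, limma). These are differences of 1.20 to 1.24-fold.

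Aspm, a spindle pole protein, measured 11.06, 10.98, 11.23, 11.34 and 11.11 at 12 weeks and 10.76, 10.88, 10.42 and 10.99 at 24 weeks, a difference of -0.38 ± 0.10 (adjusted p 0.0741, limma) with 1 mouse of 24 weeks just inside the younger range. Birc5 measured 12.36, 12.45, 12.48 and 12.45 at 24 weeks, below all 12-week mice, and differed by -0.24 ± 0.07 (adjusted p 0.0890, limma). All 10 spindle motors and microtubule proteins and all 5 kinetochore and centromere genes had differences below 0. The 4 above 0 were Bub1b (a checkpoint kinase homologue), Cdc20, Plk1 and Ttk (the checkpoint kinase Mps1), of at most 0.09. Altogether 6 of the 37 did not overlap, 16.2% against 6.95% of all genes: Aurkb, Birc5, Ccnb2, Cdca3, Cdca8 and Mki67, each lower at 24 weeks.

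The call in BALB/c depended on single arrays and settings. Without BALB/c 24-week replicate 3, Ccnb2 and Mki67 passed the threshold (adjusted p 0.0311 and 0.0470, limma), and without replicate 4 Aspm passed it (adjusted p 0.0492). Without all 3 arrays of low correlation Birc5, Ccnb2, Cdca3 and Mki67 passed. Without replicate 1, whose median signal was the lowest, no gene of the array passed, mitotic or other.

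In NeuT, 31 of the 37 differences, 24 minus 12 weeks, were below 0, or 83.8% against 51.1% of all genes, and the median was -0.069 against -0.0031 over all genes. None passed limma's threshold, against 0.0359% of all genes, and 6 had an unadjusted p under 0.05, 16.2% against 12.6% of all genes, all lower at 24 weeks. Aspm measured 11.14, 11.01, 11.07, 11.31 and 10.93 at 12 weeks and 10.67, 10.90, 10.85 and 10.70 at 24 weeks, with no overlap and a difference of -0.31 ± 0.10 (adjusted p 0.205, limma). Cks2 measured 12.01, 12.09, 12.05 and 12.02 at 24 weeks, below every 12-week NeuT mouse, and differed by -0.23 ± 0.08 (adjusted p 0.205, limma). Melk, a kinase of proliferating progenitors, measured 8.59, 8.61, 8.59, 8.72 and 8.69 against 8.06, 8.57, 8.28 and 8.27 and differed by -0.35 ± 0.12 (adjusted p 0.219, limma).

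These 3 genes were the ones without overlap in NeuT, 8.11% against 5.08% of all genes. Ccna2 differed by -0.21 (adjusted p 0.231), Nuf2 by -0.23 (adjusted p 0.272) and Top2a by -0.23 (adjusted p 0.342), all in limma's test and with overlap. The intervals of 35 of the 37 genes lay within 0.5 log2 units of 0, and in BALB/c those of 34. In the 2 age comparisons 28 genes were below 0 in both and 1, Bub1b, above 0 in both. With 33 and 31 of the 37 below 0, most genes had to be below 0 in both, so the count of 28 adds nothing. The share over all genes was not computed. The comparisons share no mice, but they share the normalisation and any batch of the 2 ages. The erythroid markers were lower with age in both, 12 of 12 below 0 with medians of -0.24 in BALB/c and -0.34 in NeuT and none past the threshold. The granulocyte precursor markers were on the other side, with 2 of 10 below 0 in BALB/c (median 0.09) and 0 of 10 in NeuT (median 0.21). The part of either in the mitotic signal was not tested.

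**Figure D4:**
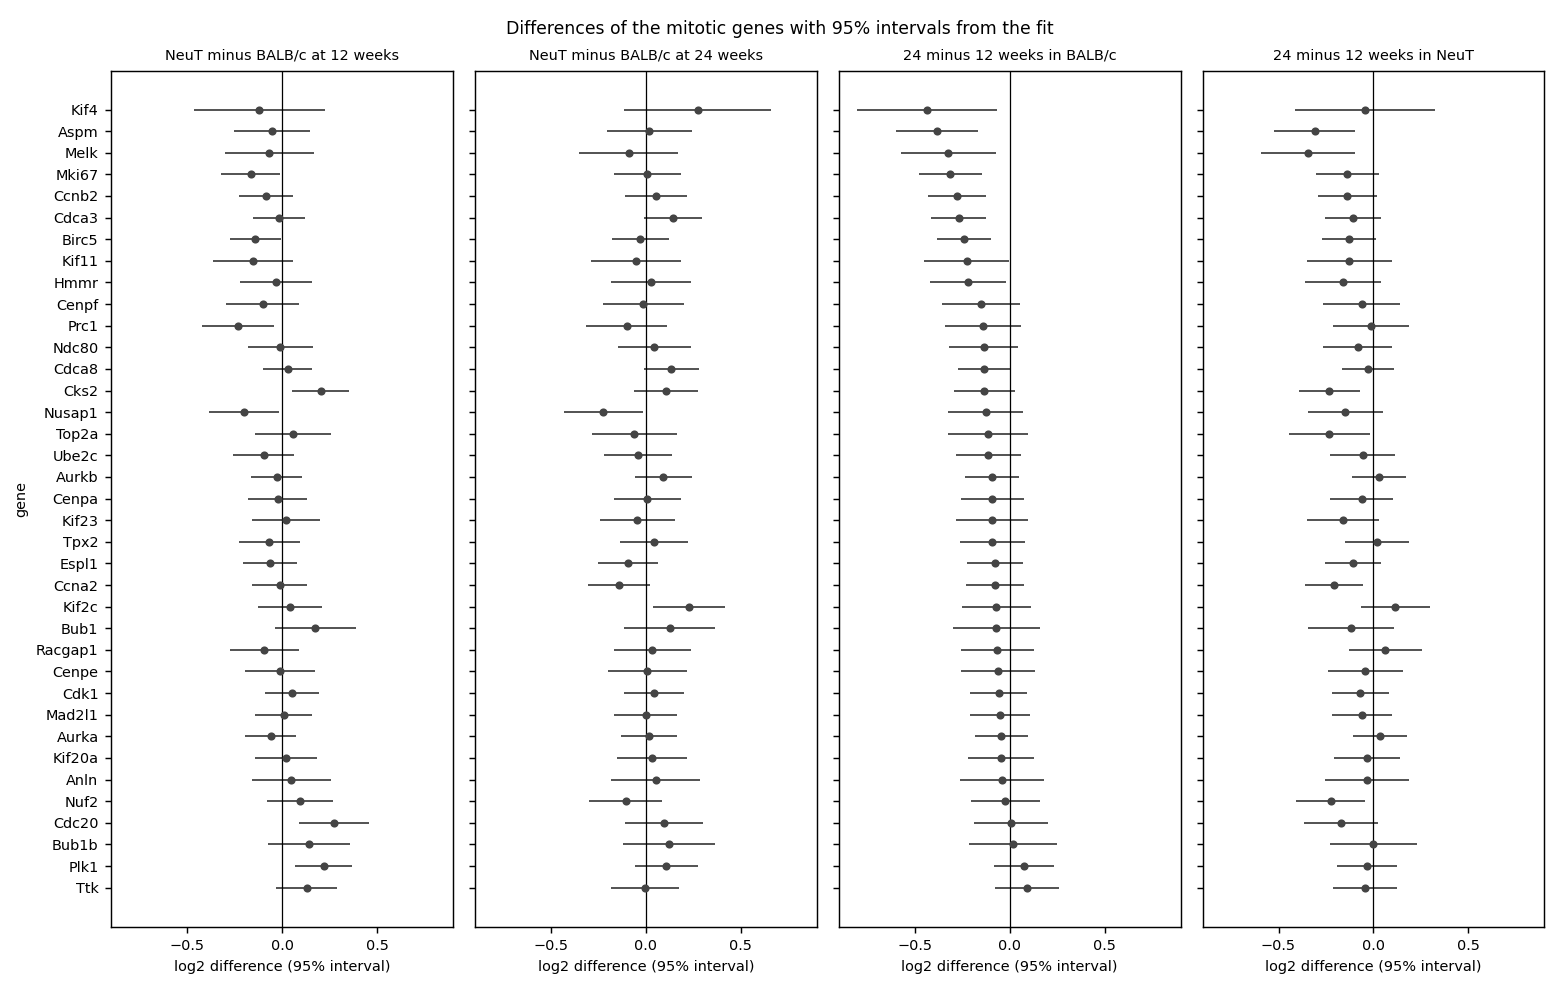
Log2 differences of the 37 mitotic genes with 95% confidence intervals from limma, for NeuT minus BALB/c at each age and for 24 minus 12 weeks in each genotype. Points for the NeuT contrasts lie on both sides of 0, and for age 33 of 37 (BALB/c) and 31 of 37 (NeuT) lie below it.

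Other genes of the same pathway were described from lists. Of 62 further genes of mitosis, 0 passed limma's threshold in any of the 5 contrasts, and 12, 1, 3, 17 and 14 had an unadjusted p under 0.05 for NeuT at 12 weeks, NeuT at 24 weeks, the difference of these, age in BALB/c and age in NeuT. These are 19.4%, 1.61%, 4.84%, 27.4% and 22.6%, against 21.0%, 13.2%, 6.50%, 15.3% and 12.6% of all genes. Their median age difference was -0.15 in BALB/c and -0.07 in NeuT, with 51 and 45 of 62 below 0. Fbxo5, the inhibitor of the anaphase-promoting complex in interphase, differed by -0.34 for NeuT at 12 weeks (adjusted p 0.0731, limma) and by -0.42 for age in BALB/c (adjusted p 0.0742). Kifc1, a minus-end kinesin, differed by -0.23 for NeuT at 12 weeks (adjusted p 0.0555, limma). Kifc1 passed after further quantile normalisation, after cyclic loess, with dim genes left out and with array weights (adjusted p 0.0263 to 0.0382). Fbxo5 passed at 12 weeks after cyclic loess, with array weights and without NeuT replicate 5 (adjusted p 0.0193 to 0.0481), and for age in BALB/c with array weights and without the 3 arrays of low correlation (adjusted p 0.0268 and 0.0496).

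Of 42 genes of G1/S and DNA synthesis, 0 passed limma's threshold in any contrast, with 7, 1, 0, 9 and 7 at an unadjusted p under 0.05 in the same order, or 16.7%, 2.38%, 0%, 21.4% and 16.7%. For age, 36 of 42 were below 0 in BALB/c (median -0.11) and 35 of 42 in NeuT (median -0.09), beside 33 and 31 of the 37 mitotic genes. Cdc6, which loads the replicative helicase, differed by -0.25 in BALB/c (adjusted p 0.115, limma) and -0.26 in NeuT (adjusted p 0.148, limma).

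Of 23 inhibitors and quiescence genes, 3 changed, all for NeuT at 12 weeks, where 3.84% of all genes did. Klf2, a transcription factor of quiescent lymphocytes and endothelium, rose from 8.67 ± 0.09 to 9.14 ± 0.16 (SD, n = 5 and 5, adjusted p 0.00399 from limma). Ccng1, a p53 target, rose from 10.35 ± 0.20 to 10.79 ± 0.13 (adjusted p 0.0274), and Ccng2, a cyclin of cells that leave the cycle, fell from 10.78 ± 0.14 to 10.41 ± 0.21 (adjusted p 0.0271). Without any 1 of 4 arrays Ccng1 no longer passed (adjusted p 0.0578 to 0.101), nor did Ccng2 without any 1 of 6 (adjusted p 0.0549 to 0.0889), while Klf2 passed under every alternative run. Further quantile normalisation also ended the call of Ccng1 (adjusted p 0.0508), and leaving out the 3 arrays of low correlation with BALB/c 24-week replicate 1 that of Ccng2 (adjusted p 0.0525). The single arrays were BALB/c replicates 1 and 2 and NeuT replicates 1 and 4 for both genes, and BALB/c replicate 4 and NeuT replicate 2 for Ccng2. In the same comparison 8 of 13 monocyte and macrophage markers rose and 1 fell, with a median of 0.50, and their part was not tested.

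The remaining members had smaller differences or wider spread, and none passed limma's threshold in any contrast (counts at an unadjusted p under 0.05 are given with each comparison). The 5 kinetochore and centromere genes (the centromeric histone Cenpa, the motor Cenpe, Cenpf, and the Ndc80 complex subunits Ndc80 and Nuf2) ran from -0.10 to 0.09 for NeuT at 12 weeks and from -0.11 to 0.04 at 24 weeks. With age they ran from -0.15 to -0.02 in BALB/c and from -0.23 to -0.04 in NeuT, below 0 for 5 of 5 genes in both genotypes. Of the checkpoint genes, Mad2l1, which inhibits Cdc20, differed by 0.0076 for NeuT at 12 weeks, with a sign that turned under several alternatives, and Bub1b by 0.14 (adjusted p 0.464, limma).

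Bub1, the kinase that recruits checkpoint proteins to kinetochores, differed by 0.17 for NeuT at 12 weeks (adjusted p 0.339, limma), and Ttk by 0.13 (adjusted p 0.343). Aurka, the centrosomal Aurora kinase, had the smallest spread over arrays of the 37 genes and differed by -0.06 at 12 weeks and 0.02 at 24 weeks, with intervals of -0.19 to 0.07 and -0.13 to 0.17. The cytokinesis genes Racgap1, a subunit of centralspindlin, and Anln, which scaffolds the contractile ring, ran from -0.09 to 0.05 for NeuT at 12 weeks and from -0.06 to 0.06 with age in both genotypes. Kif11 differed by -0.15 for NeuT at 12 weeks (adjusted p 0.402, limma) and by -0.23 with age in BALB/c (adjusted p 0.321). Hmmr, a spindle protein that also binds hyaluronan, differed by -0.22 with age in BALB/c (adjusted p 0.269, limma) and by -0.16 in NeuT (adjusted p 0.530). Kif23, the motor of centralspindlin, differed by -0.16 with age in NeuT (adjusted p 0.501, limma). Over all 5 contrasts the kinesin Kif20a and the spindle assembly factor Tpx2 ran from -0.09 to 0.11.

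The last measure was how far the mitotic genes varied together among mice of a group. Pearson's r between residuals from the group means, over 18 arrays that share their normalisation, had a median of 0.31 over 666 pairs of genes, and 0.35 without BALB/c 24-week replicate 3. Over all pairs of genes the median was 0.038, and within other lists it was 0.29 for G1/S and DNA synthesis, 0.23 for the further mitosis genes, 0.47 for granulocyte precursor, 0.78 for erythroid and 0.84 for B-cell markers. Against the mean of the other members, r was 0.83 for Kif11, the motor that separates spindle poles, 0.81 for Ccna2 and 0.76 for Prc1, above 0.5 for 20 genes, and lowest for Cdca3 (0.22), Ube2c (0.15) and Cdc20 (0.06). No gene was below 0. Outside the list, the genes most alike to the mean of the 37 on the same measure were Cnppd1 (0.93), Wrn (0.91), Bcl7b (0.90), Dnajc9 (0.90), Serpinb6b (0.90), Ctbp1 (0.88), the condensin subunit Ncapg2 (0.88), Aplf (0.87), Jmy (0.87) and Rrm1, a subunit of ribonucleotide reductase (0.87). These are descriptions of 18 arrays chosen as the highest among all genes.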

How the data were processed

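The authors deposited log2 signals, 1 per probe set and array, and the submitters' processing notes name RMA and the Transcriptome Analysis Console; tool versions and the build, not given in the sources used here. Of 29129 probe sets, 19572 were paired with 1 gene symbol. For the 55 genes with several probe sets that of the highest mean was kept (none a mitotic gene), leaving 19505 genes, with no filter on dim genes.

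One mean per group was fitted in limma 3.58.1 (R 4.3.3; 14 residual and 8.68 prior degrees of freedom), with two-sided tests and Benjamini-Hochberg adjustment over all genes at 0.05. The fit was tested on simulated data: changes of 0.5 log2 units were recovered for 94% of changed genes at 12 weeks, 85% at 24 weeks and 91% for age in NeuT. The simulated noise was independent between genes, with no effects shared by an array, whereas the mitotic genes varied together. Changes smaller than 0.5 were not simulated, so these shares do not apply to the smaller differences described above. The members and gene lists were chosen with earlier results of these data known. Genes were named by smallest adjusted p or largest difference per comparison, plus Mki67, Top2a, Cdk1, Plk1, Aurkb and those with extreme spread; genes of other lists by threshold or smallest p. Replicates are different mice, and the number of arrays limits precision. Alternatives covered normalisation, dim genes, moderation, array weights, groups fitted and left-out arrays. Figures used matplotlib 3.10.9.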

Additional observations from a re-analysis of the deposited data

Results flagged for a closer look

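Single mice stood apart from the rest of their group (gap over range above Dixon's 95% value) in 13 of 152 tests of a mitotic gene or list mean within a group, and chance flags about 1 in 20 groups. In BALB/c 24-week mice, replicate 1 was lowest for Cenpa (12.21), Cdc20 (10.98), Cdca8 (10.81) and Espl1 (10.02), and replicate 3 for Bub1 (8.97, the others 9.61 to 9.65) and Plk1 (11.78). In NeuT 12-week mice, replicate 5 was highest for Nusap1 (11.84, the others 11.35 to 11.47) and Prc1 (11.35, the others 10.95 to 11.06), and replicate 4 was highest for Cdc20 (11.80). In NeuT 24-week mice, replicate 1 was lowest for Cdk1 (11.73) and replicate 4 highest for Aurkb (11.72). In BALB/c 12-week mice, replicate 5 was lowest for Kif23 (10.59) and replicate 2 for Mad2l1 (12.11).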

How the results depend on the processing

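No paired analysis was possible because the replicate numbers are in accession order and the mice of different groups are different animals. With array weights 2 mitotic genes passed at 12 weeks (Cdc20 and Plk1) and 5 for age in BALB/c. For age in BALB/c, 2 passed after further quantile normalisation, with dim genes left out, and with trend and robust moderation, 1 after cyclic loess, and 4 without the 3 arrays that correlate least. Leaving out 1 array gave 0 to 2 mitotic genes at 12 weeks and 0 to 2 for age in BALB/c. None passed in the other contrasts under any alternative run.

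Counts over all genes moved more, and the cause was not tested. Leaving out 1 array gave 230 to 1363 genes at 12 weeks (749 with all), 8 to 641 at 24 weeks (274), 1 to 3 for the difference (2), 0 to 589 for age in BALB/c (113) and 1 to 177 for age in NeuT (7). With array weights the counts were 2088, 577, 10, 2375 and 72 in the same order. Without the 3 arrays they were 15 at 24 weeks, 0 for the difference, 1277 for age in BALB/c and 0 for age in NeuT. Without these and the array of lowest median signal, a set chosen after seeing the data, they were 4, 1, 172 and 0. The 3 arrays were themselves picked by their correlations in these same data. Fits of only the groups compared gave 1 at 24 weeks, 183 for age in BALB/c and 0 for age in NeuT. Further quantile normalisation gave 114, 4, 182 and 3, cyclic loess 101 at 24 weeks and 3 for age in NeuT, and median centring 1 for the difference and 1 for age in NeuT. Leaving out dim genes gave 220 for age in BALB/c and 13 for age in NeuT, and trend and robust moderation 4 for the difference and 13 for age in NeuT.

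Differences near 0 changed sign. For NeuT at 12 weeks without the 3 arrays (with or without the array of lowest median signal), Top2a was -0.033, Aurkb 0.026 and Kif4 0.0031. Mad2l1 at 12 weeks was -0.0023 after further quantile normalisation, -0.036 after cyclic loess and -0.00062 with array weights. At 24 weeks, further quantile normalisation gave -0.10 for Mki67, -0.020 for Cdk1 and -0.039 for Aurka, cyclic loess -0.091, -0.038 and -0.033, and array weights -0.044 for Mki67, -0.051 for Cdk1 and -0.016 for Kif4. Without the 4 arrays these last were -0.051, -0.054 and -0.056, Cdc20 was -0.028, the Kif4 difference of effects was -0.059, and for age in BALB/c Top2a was 0.059 and Cdk1 0.070 (0.037 with array weights). The Cdk1 difference of effects was 0.0041 without the 3 arrays. For age in NeuT, Aurkb was -0.022 without the 3 or 4 arrays and Aurka -0.00063 after cyclic loess. The members' median difference of effects was -0.055 without the 4 arrays, and the members' mean in BALB/c 24-week replicate 1 was 10.86 after further quantile normalisation.

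Leaving out 1 array gave at 12 weeks -0.033 to 0.10 for Top2a, -0.063 to 0.026 for Aurkb, -0.19 to 0.0031 for Kif4 and -0.038 to 0.049 for Mad2l1. At 24 weeks it gave -0.065 to 0.059 for Mki67, -0.12 to 0.0052 for Top2a, -0.016 to 0.089 for Cdk1 and -0.014 to 0.052 for Aurka. It gave -0.069 to 0.036 for the Cdk1 difference of effects, -0.11 to 0.00027 for Cdk1 with age in BALB/c, and -0.027 to 0.062 for Aurkb and -0.17 to 0.030 for Kif4 with age in NeuT. The count of mitotic genes below 0 ran over all alternatives, single arrays left out included, from 18 to 26 at 12 weeks, 10 to 26 at 24 weeks, 10 to 24 for the difference, 24 to 35 for age in BALB/c and 28 to 34 for age in NeuT.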
